A study of Caenorhabditis elegans with 4 samples.

Results

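The miRNAs miR-72, miR-73 and miR-74 of *Caenorhabditis elegans* were described from the small RNA libraries of a heat shock (HS) study. They were chosen by name alone, as each row of the authors' table whose name without its arm is cel-miR-72, cel-miR-73 or cel-miR-74 (written without the prefix below). This gave 5 mature miRNAs from 3 hairpins (miR-72-5p, miR-72-3p, miR-73-3p, miR-74-3p and miR-74-5p), of 205 mature miRNAs from 132 hairpins in all. The other arm of miR-73, miR-73-5p, has no row in the table.

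The animals were wild-type N2 Bristol worms, the standard laboratory strain, taken whole at the last larval stage (L4). Control animals (CTRL, 2 libraries) were kept at 20°C, and HS animals (2 libraries) were moved to 35°C. The length of the HS is 4 h in the sample characteristics and 6 h in the treatment protocol, the latter being also the time in the study's small RNA methods. Both groups carried the same genotype and were fed OP50 bacteria, and a whole-worm library mixes the miRNAs of every tissue.

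A miRNA gene is transcribed into a longer RNA that folds back into a hairpin. The Drosha and Dicer enzymes cut from it a duplex of a 5p and a 3p arm. As a rule, 1 arm, the guide, is kept by an Argonaute protein and leads it to mRNAs through pairing of its seed, a short stretch near the 5′ end, whereas the other arm, the passenger, is released and decays. miR-72, miR-73 and miR-74 are grouped with miR-31 of flies and mammals, and miRNAs of such a group share targets as far as they share a seed. No mature sequence was at hand to compare here, so this relation was taken from the naming of the group and was not checked.

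The level of each miRNA is given below as the mean normalized count, the authors' mean over all 4 libraries of read counts divided by a size factor per library. This value pools CTRL and HS. It therefore says how abundant a miRNA was over both temperatures together, and not how it responded to HS, a difference that was not analysed here. There is no value per library and no spread between replicates, so each order of levels below is that of the pooled means, and whether 2 neighbouring levels differ could not be tested. Ligation and amplification favour some sequences over others, so levels of different miRNAs are relative.

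Over the 205 listed miRNAs the mean normalized counts ran from 51.5 to 1136489, with a median of 1512 and quartiles of 359 and 10734. The 5 arms of the group spanned most of this range. Together they had 860860.5 mean normalized counts, which is 8.70% of the summed level of the table. Nearly all of this came from 1 arm of 1 hairpin.

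The dominant member was miR-72-5p, the guide by abundance of its hairpin. It had 790819.6 mean normalized counts in the authors' table, 8.0% of the summed level, and ranked second of 205. Among the 87 miRNAs named as 5p arms, guides and passengers alike, it ranked first, against a median of 917 for these arms. The only higher listed miRNA, miR-82-3p, had 1136489 mean normalized counts, 1.44-fold more. The next lower one, miR-80-3p, had 705995, so miR-72-5p exceeded it by 1.12-fold. Within the group miR-72-5p made up 91.9% of the summed level.

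The passenger of the same hairpin, miR-72-3p, was the least abundant of the 5. Its mean normalized count was 309, rank 159 of 205, or 0.00313% of the summed level. It stood between miR-255-3p at 329.5 and miR-358-5p at 302. This is 6.00-fold above the lowest listed level but below the lower quartile of 359.

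The second member by abundance was miR-73-3p, with 66805 mean normalized counts. It ranked 23rd of all listed miRNAs and 14th of the 98 listed as 3p arms, guides and passengers alike, whose median was 1867. Its share of the summed level was 0.675% in the table and 7.76% within the group. The levels beside it were close, with miR-46-3p at 68838 and miR-54-3p at 65563 mean normalized counts, 1.03-fold above and 1.02-fold below.

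Both arms of miR-74 lay near the middle of the table. miR-74-3p had 1853 mean normalized counts (rank 93) and miR-74-5p had 1074 (rank 113), on either side of the median of 1512. With the less abundant arm of each hairpin left out, miR-74-3p ranked 77 of 132. Their shares of the summed level were 0.0187% and 0.0109%. miR-75-3p, which comes from the next hairpin on the chromosome, ranked just above miR-74-3p at 1881, and miR-49-3p just below it at 1793. For miR-74-5p the neighbours by rank were miR-1820-5p at 1128 and miR-247-3p at 1068. By the sum of its listed arms the miR-74 hairpin made up 0.34% of the group and ranked 73rd of 132 hairpins, whereas miR-72 ranked second and miR-73 24th.

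**Figure D1:**
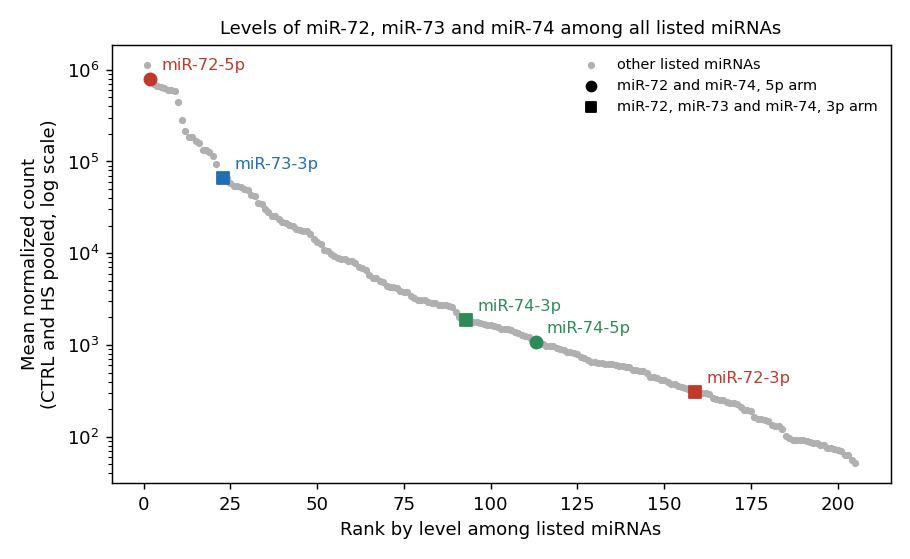
Mean normalized count of each of the 205 listed miRNAs (authors' mean over CTRL and HS, log scale) against its rank, with 5p arms of the group as circles and 3p arms as squares. miR-72-5p stands at rank 2 and miR-72-3p at rank 159, with miR-73-3p at rank 23 and the arms of miR-74 at ranks 93 and 113 between them.

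The more abundant arms of the 3 hairpins were thus far apart in level. miR-72-5p exceeded miR-73-3p by 11.8-fold, or 3.57 on the log2 scale of levels, and miR-74-3p by 427-fold (8.74). miR-73-3p in turn exceeded miR-74-3p by 36.0-fold (5.17). With the listed arms of each hairpin summed, the last 2 ratios were smaller, at 270.3-fold (8.08) for miR-72 over miR-74 and 22.8-fold (4.51) for miR-73 over miR-74. These are ratios of pooled means without replicate error. Reads of related miRNAs can match more than 1 of them, and how such reads were divided is not given in the sources used here.

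The side of the hairpin that gave the abundant arm was not the same in the group. It was the 5p arm in miR-72 and the 3p arm in miR-74, and the only listed arm of miR-73 was the 3p. Of the 73 hairpins listed with both arms, 29 had more of the 5p arm and 44 more of the 3p arm. Hence miR-72 belonged to the smaller class and miR-74 to the larger one. The scarce arms also differed in order from the abundant ones, since miR-74-5p was 3.47-fold above miR-72-3p while miR-74-3p was far below miR-72-5p.

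The hairpins also differed in how unequal their arms were. Each ratio below divides means pooled over CTRL and HS, and the ratio at either temperature alone is not known. The ratio of the abundant to the scarce arm was 2558 in miR-72 (11.32 on the log2 scale). This was the second highest of the 73 hairpins, below miR-82 with 4263 and above miR-90 with 2404. The median ratio over the 73 was 20.8, with quartiles of 4.07 and 138. Of the 73, 5 had a ratio above 1000. Another 59 hairpins were listed with a single arm and are not in this ranking.

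In miR-74 the ratio was only 1.73 (0.79 on the log2 scale), rank 68 of 73. The next hairpins in this order were miR-243 with 1.93 and miR-790 with 1.49, and miR-74 was 1 of 7 hairpins with a ratio below 2. Which arm of miR-74 acts as its guide is therefore less clear from abundance than in miR-72. The pooled means carry no replicate error, so whether the arms of miR-74 differed beyond it could not be tested.

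Because a high level of 1 arm by itself raises the ratio, each hairpin was also set beside the 10 whose abundant arm was closest to its own in level, out of the other 72 with both arms listed. For miR-72 these had abundant arms from 214114 to 1136489 mean normalized counts and arm ratios from 40.1 to 4263, with a median of 483. Of these 10, 1 had a higher ratio than miR-72. This was miR-82, also the only 1 of them with a higher abundant arm than miR-72, and all the others lay below miR-72 in level. For miR-72 the comparison therefore cannot separate the ratio from the level. A hairpin whose scarce arm is not listed has no ratio and could not enter, and there was 1 such hairpin in this range of levels. For miR-74 the 10 hairpins had abundant arms from 891 to 4275 and arm ratios from 2.78 to 66.8, with a median of 6.98, and each of them was more asymmetric than miR-74. The number of 10 was not varied, and the hairpins with lower ratios than miR-74 had abundant arms above or below this range. There were 19 hairpins with a single listed arm in this range, for which no ratio is known. The scarce arm of miR-72 was of middling level among those listed, ranking 44th of 73 against a median of 453, and that of miR-74 ranked 24th. Scarce arms without a listed level have no place in this order. In miR-72 a 5p arm near the top of the table thus stood over a scarce arm that ranked in the middle of the listed scarce arms. In miR-74 both arms were of moderate level.

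**Figure D2:**
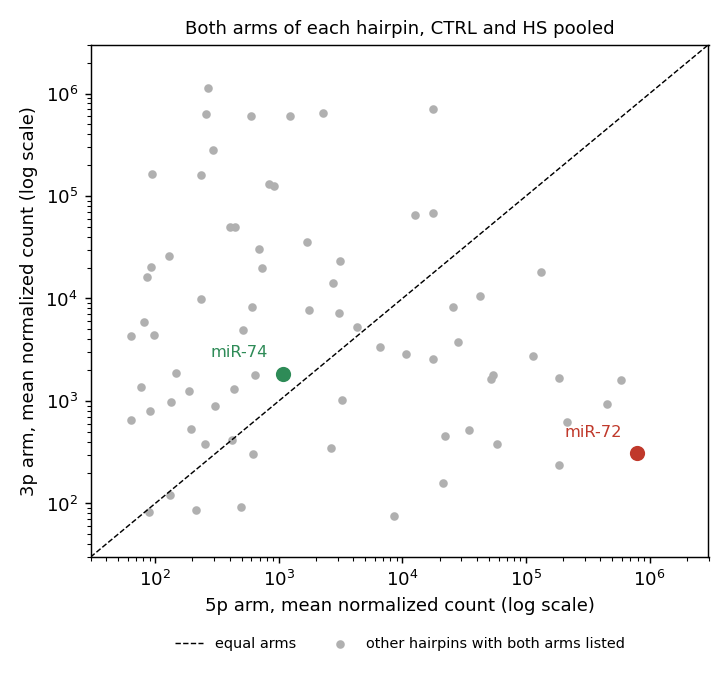
Levels of the 5p arm (horizontal) and the 3p arm (vertical) of the 73 hairpins listed with both arms, as mean normalized counts over CTRL and HS on log scales, where the dashed line marks equal arms. miR-72, with 790819.6 against 309, lies far to the right of the line, and miR-74, with 1074 against 1853, lies close to it.

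For miR-73 no ratio could be formed. Both of its arms are annotated, and it was 1 of 46 hairpins that had 2 annotated arms but only 1 listed, among which its level was the third highest. The lowest level in the whole table, 51.5 mean normalized counts, was 1297-fold under miR-73-3p. Whether miR-73-5p lay below that level or was left out for another reason is not known, so this figure is no bound on its arm ratio.

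The 3 hairpins lie at 2 places in the genome (WBcel235). The mir-72 hairpin (WBGene00003300) is on chromosome II at 2452838 to 2452936 on the plus strand and is 99 bases long. Its 5p arm spans 2452854 to 2452876 and its 3p arm 2452898 to 2452919. It overlaps no other annotated gene and has no other miRNA hairpin within 10 kb. Its closest neighbour, pqn-42, a gene for a protein with a glutamine- and asparagine-rich domain, lies 33 bases beyond it on the opposite strand. Upstream on the same strand the nearest protein-coding gene is vab-19, which encodes an ankyrin repeat protein of epidermal attachments and ends 1890 bases before the hairpin.

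The mir-73 and mir-74 hairpins stand together on the plus strand of chromosome X. mir-73 (WBGene00003301) spans 2368765 to 2368863, 99 bases, with its arms at 2368787 to 2368810 and 2368826 to 2368848. mir-74 (WBGene00003302) spans 2369043 to 2369139, 97 bases, with its arms at 2369062 to 2369084 and 2369103 to 2369124. The 2 hairpins are 179 bases apart, and whether they share a primary transcript was not measured. The mir-75 hairpin follows on the same strand 3313 bases after mir-74. Neither mir-73 nor mir-74 lies in a protein-coding gene.

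mir-74 does overlap annotated non-coding RNA genes, and mir-73 does not. T24D8.14, on the same strand, covers 52 bases of the mir-74 hairpin, including all 23 bases of the 5p arm and none of the 3p arm. T24D8.16, on the opposite strand, covers 80 bases, with the whole 5p arm and 20 of the 22 bases of the 3p arm. linc-150 lies 41 bases beyond mir-74 on the opposite strand. Reads were mapped to miRNAs, so a read from the stretch that T24D8.14 shares with miR-74-5p could not be told apart from that arm, and whether there were such reads was not tested.

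**Figure D3:**
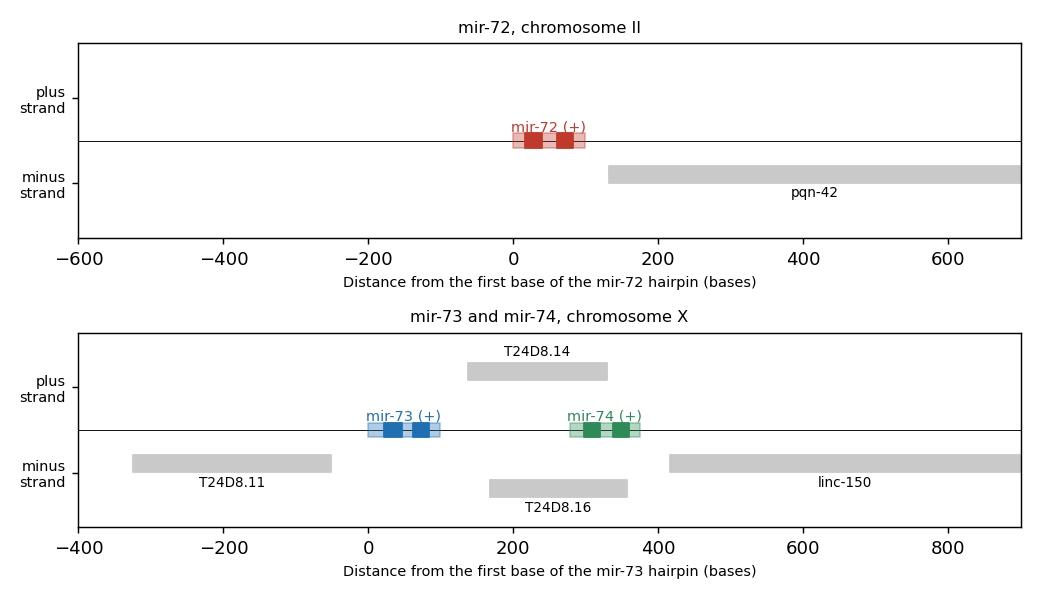
Map of the mir-72 hairpin and of the mir-73 and mir-74 hairpins (pale bars, all on the plus strand, with the mature arms in full colour) and the annotated genes around them (grey, above the line for the plus strand and below it for the minus strand), by distance in bases from the first base of mir-72 or mir-73. T24D8.14 and T24D8.16 overlap mir-74, whereas mir-72 and mir-73 overlap no other gene.

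By annotation the arms of the group were of usual size. The 5p arms of miR-72, miR-73 and miR-74 were 23, 24 and 23 bases long and the 3p arms 22, 23 and 22. Over the 116 placed hairpins with 2 annotated arms the medians were 23 for 5p arms and 22 for 3p arms. The arms were 21 bases apart in miR-72, 15 in miR-73 and 18 in miR-74, against a median of 18 and a range of 14 to 54. The 5p arm began 16, 22 and 19 bases into the hairpin. miR-73 thus had the longest arms and the shortest loop of the 3, and none of these lengths was outside the range of the other hairpins.

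Hairpins that stand side by side can be cut from 1 transcript, so their levels were compared with those of other neighbours. Among the listed hairpins there were 28 pairs of neighbours on the same strand with at most 10 kb between them, those of miR-74 included. The level of a hairpin was taken as that of its most abundant listed arm. Hairpins without a listed arm were not counted, and a hairpin can be in more than 1 pair. The median difference in level between 2 such neighbours was 2.16 on the log2 scale, or 4.49-fold. miR-73 and miR-74 differed by 5.17, or 36.0-fold, rank 5 of 28 from the widest. Among the 18 pairs within 1 kb it ranked 2, and with the listed arms summed the difference was 4.51, or 22.8-fold, rank 6 of 28. By contrast miR-74 and miR-75 differed by only 0.02 (1.02-fold), the narrowest of the 28 by the most abundant arm. With the arms summed they differed by 0.53 (1.44-fold), which ranked 24 from the widest. In the order of the chromosome the levels were therefore 66805 for miR-73, 1853 for miR-74 and 1881 for miR-75. The hairpins 179 bases apart were thus far more unlike in level than those 3313 bases apart. The scarce arms of the last 2 were not alike, at 1074 for miR-74-5p and 148 for miR-75-5p.

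**Figure D4:**
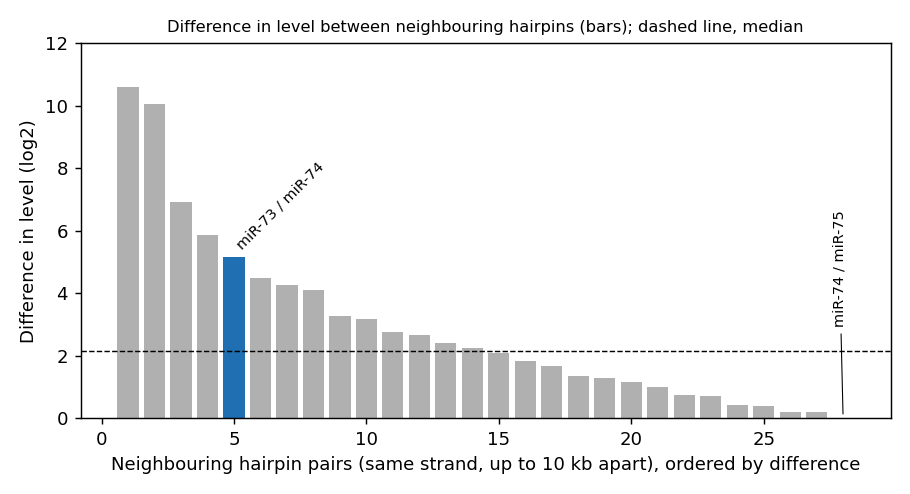
Difference in level (log2, more abundant over less abundant hairpin) for the 28 pairs of neighbouring listed hairpins, in order of size. Pairs are on the same strand and up to 10 kb apart, and the dashed line is the median of 2.16. The pair of miR-73 and miR-74 (blue) ranks 5 at 5.17, and that of miR-74 and miR-75 is last at 0.02, with levels taken as those of the most abundant arms.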

How the data were processed

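Small RNA was sequenced in 2 CTRL and 2 HS libraries, grouped by their titles. The authors mapped reads to *C. elegans* miRNAs and normalized them in DESeq2. The aligner, the miRNA reference, the DESeq2 version and the treatment of reads that match several miRNAs are not given in the sources used here. The deposited signal used here is a count divided by the size factor of its library, averaged by the authors over the 4 libraries. It carries no spread between replicates, and the depth of the libraries is unknown, so no interval or detection limit is given. Another 2 columns hold the authors' log-scale fold change of HS over CTRL and its adjusted p. They are the authors' own comparison and were not used.

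Ranks, shares and ratios were computed with Python 3.11.15, pandas 2.3.3 and numpy 2.4.6, and drawn with matplotlib 3.10.9. The functions for arm ratios and neighbouring pairs were tested on simulated data. There each hairpin had both arms, and all stood on the same strand, each within 10 kb of the next. The handling of single arms, of the strand and of the window limit was therefore not tested. No statistical test was made. Positions come from the Ensembl release 115 annotation of WBcel235, counted from 1, which placed 129 of 132 hairpins by name. WBcel235 is the assembly of WS235, to which the study aligned its long RNA; for small RNA the build is not given in the sources used here.

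The text names each listed arm of the 3 hairpins, the miRNAs next to them in the ranking by level, the hairpins next to them in the ranking by arm ratio, and miRNAs within 10 kb. Members and comparisons were chosen with earlier results of these data known. The comparison of neighbouring pairs and that with hairpins of like level were added after the table had been seen.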

Additional observations from a re-analysis of the deposited data

How the results depend on the processing

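No paired analysis was possible because only 1 mean per miRNA, taken over CTRL and HS alike, was used. Leaving out single replicates could not be run for the same reason, and the 3 alternatives on seed families were not run because no mature sequences were used. The windows for neighbouring pairs and the sum of arms for them were chosen after seeing the data. No error exists for these values, so a value counts as moved once its first 3 digits change, or a rank or count by over 1.5 times.

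Without the most abundant listed miRNA the shares of the summed level were 9.03% for miR-72-5p, 0.763% for miR-73-3p, 0.0212% for miR-74-3p, 0.0123% for miR-74-5p and 0.00353% for miR-72-3p. With miRNAs of at least 1000 mean normalized counts only, they were 8.02%, 0.678% and 0.0188% for the first 3. A pseudocount of 100 lowered the log2 arm ratio to 10.92 in miR-72 and 0.73 in miR-74, and one of 10 gave 0.78 in miR-74. With 100 added, the log2 ratios of levels were 3.56 for miR-72-5p over miR-73-3p, 8.66 for miR-72-5p over miR-74-3p and 5.10 for miR-73-3p over miR-74-3p. With the listed arms of each hairpin summed, the last 2 were 8.08 and 4.51. Among the 18 pairs of neighbours within 1 kb, the difference between miR-73 and miR-74 ranked 2. A pseudocount added to both terms cannot reverse a ratio. A scarce arm cannot exceed the abundant one, so summing arms could not reverse level ratios of this size either. That no ratio changed direction is therefore no check on them. The other 16 of the 34 recomputed values, ranks by level and by arm ratio among them, did not move by these limits. Some of these ranks could not have moved. The highest scarce arm stood at 18285, so leaving scarce arms out could not change rank 2 of miR-72-5p or rank 23 of miR-73-3p. Requiring 100 or more for both arms could not change rank 2 of the miR-72 arm ratio. miR-82 and miR-72 had scarce arms of 267 and 309. These unmoved ranks are therefore no check either.

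The depth is unknown, so the counting error of each level, that of miR-72-3p at 309 mean normalized counts included, cannot be given.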
